A study of Rattus norvegicus with 12 samples.

Results

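Cathepsins B, S, Z and D, encoded by Ctsb, Ctss, Ctsz and Ctsd, were followed in the lungs of rats instilled with silica or saline. The members were chosen by name, as every array probe that the study's gene table assigns to these 4 symbols. That rule gave 4 probes of the 51255 distinct probes on the array, 1 for each gene, and all 4 were well above background on all 12 arrays. Only the first 1279 of 2275 rows of that table were at hand, so further probes of these genes may be on the array without a name here. The table holds probes that the study selected on the day 28 arrays of this same series. The day 28 difference between silica and saline is therefore given as a description, without a test. The day 14 arrays, which that selection did not use, carry the test. The members were chosen with earlier results of these data known, which limits that test.

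Lung RNA was measured in 12 male Wistar rats on single-colour Agilent arrays, 1 array for each rat, where a brighter spot means that more labelled RNA was bound to the probe. Model rats had received silicon dioxide into the trachea, 1 mL of a suspension of 50 mg/mL, and control rats 1 mL of saline. There were 3 model and 3 control rats at day 28, and 3 model and 3 control rats at day 14. The day 14 rats are known only from the labels, whose titles and time points give 14 days although their shared protocol text gives 28 days, and the dose is also written there as 50 mg/kg. The study states that lungs were picked by their histological changes, and no age is given in the sources used here.

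The share of probes well above background ranged from 60.5% to 69.5% over the arrays, with no saturated probe. The arrays lay on 2 slides. All 3 day 28 silica arrays were on slide 1 together with the first day 28 saline replicate, and the remaining 8 arrays were on slide 2. The share of probes well above background was 60.46% to 63.25% on slide 1 and 64.63% to 69.52% on slide 2. A p-value here weighs a difference of means against the spread between rats, 3 in each group, and the number of arrays limits the precision. In limma, the main test used, the estimate of that spread draws in part on all tested probes.

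Cathepsins are proteases of the endosome and lysosome, where acidity activates them and where they break down proteins that a cell has taken up or has marked for turnover. Alveolar macrophages, which swallow inhaled particles, are rich in them. Silica crystals taken up by macrophages are known to damage the lysosomal membrane and to let cathepsins, cathepsin B above all, reach the cytosol, where they take part in activation of the NLRP3 inflammasome. Cathepsins B, S and Z are cysteine proteases and cathepsin D is an aspartic protease.

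Each gene was read through a probe of 60 bases, and the probes are shown because every value below rests on a single probe per gene. The probes of Ctss and Ctsz each contain 2 forward reading frames without a stop codon, and are printed whole. That of Ctsb contains none and that of Ctsd contains 1. The Ctsd probe carries the polyadenylation hexamer AATAAA, shown in capitals in a stretch of 30 bases.
Ctss probe: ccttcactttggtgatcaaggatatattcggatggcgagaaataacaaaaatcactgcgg
Ctsz probe: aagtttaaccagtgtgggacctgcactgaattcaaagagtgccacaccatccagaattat
Ctsd probe, bases 25 to 54: agttgatatacaAATAAAgttgttttgggc
The GC content of the 4 probes lay close together, at 45.0% for Ctsb, 43.3% for Ctsz and 41.7% for both Ctss and Ctsd. The gene table places Ctsb on chromosome 15, Ctsd on chromosome 1 and Ctss on chromosome 2, and RefSeq places Ctsz on chromosome 3. Probes of different sequence bind differently, so the signals below are compared between rats and never between genes.

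RefSeq promoters of the assembly GRCr8 were at hand for 3 of the 4 genes, Ctsd, Ctss and Ctsz, each running from 250 bases before to 50 bases after the start of the gene. They are shown because the transcripts of all 3 genes rose with silica, as described below, so that a reader can compare the letters before their starts. Stretches that end at the start of the gene are printed 5′ to 3′ on the strand of the gene, with motif matches in capitals.
Ctsd, chr1:206968822-206969051, minus strand: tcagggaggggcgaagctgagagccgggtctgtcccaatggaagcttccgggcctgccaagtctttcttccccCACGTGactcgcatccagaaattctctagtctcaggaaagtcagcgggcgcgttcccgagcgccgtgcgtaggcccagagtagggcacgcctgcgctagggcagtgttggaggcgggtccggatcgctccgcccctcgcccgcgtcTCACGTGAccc
Ctss, chr2:185775316-185775395, plus strand: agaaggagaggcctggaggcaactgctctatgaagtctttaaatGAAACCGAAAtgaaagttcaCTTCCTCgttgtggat
Ctsz, chr3:183653848-183653967, minus strand: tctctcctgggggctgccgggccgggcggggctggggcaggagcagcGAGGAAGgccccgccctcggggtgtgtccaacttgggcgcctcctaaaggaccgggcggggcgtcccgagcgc

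4 motifs were searched on both strands of the whole windows. CACGTG, the E-box core that the lysosomal regulator TFEB and its relatives bind, occurred 2 times in the Ctsd promoter, at positions −157 and −10 counted from the start, and not in those of Ctss and Ctsz. The nearer match lay inside TCACGTGA, a longer form that contains the first motif. CACGTG was found in 6.42% of the 33469 promoters of this length and TCACGTGA in 0.777%. A pair of GAAA copies with 2 bases between them, a core of interferon response elements, occurred only in the Ctss promoter among the 3, at −36, and in 3.92% of all promoters. GAGGAAG, which contains the GGAA core of ETS factors such as PU.1, was read on the reverse strand of Ctss at −16 and on the forward strand of Ctsz at −73, and in 12.4% of all promoters. The Ctsd and Ctsz windows had a GC content of 63.0% and 63.7% and held 27 and 18 CG pairs, against 45.3% and 6 CG pairs for Ctss and medians of 51.7% and 7 over all promoters. A match is a description of letters, and an absent match says only that these letters were not in the window.

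At day 14, all 4 cathepsin transcripts rose in the silica lungs, by between 2.80-fold for Ctsb and 4.30-fold for Ctsz. In each of the 4 genes, every silica rat lay above every saline rat. The values below are log2 signals after quantile normalization over the 6 arrays of that day. Calls needed a fold change of 2 or more and a p no larger than 0.05 after Benjamini-Hochberg adjustment over the 33616 probes tested, and 2.59% of tested probes were called higher in this way.

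Ctsb encodes cathepsin B, which cuts within proteins and also trims dipeptides from their carboxyl end. Its log2 signals at day 14 were 14.95, 14.74 and 14.45 in the silica rats and 13.39, 12.99 and 13.29 in the saline rats. The lowest silica value stood 1.06 above the highest saline value. The difference of means was 1.49 on the log2 scale (SE 0.181, 95% interval 1.06 to 1.91), with an adjusted p of 0.0087 from limma.

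Ctss encodes cathepsin S, a protease of antigen-presenting cells that degrades the invariant chain of MHC class II and stays active at neutral pH. Its log2 signals at day 14 were 13.07, 12.21 and 12.07 in the silica rats and 11.10, 10.51 and 11.03 in the saline rats. Silica replicate 1 stood apart from the other 2, and the SD among the silica rats, 0.54, was the largest of the 4 genes. The difference was 1.57 (SE 0.292, 95% interval 0.88 to 2.25), with an adjusted p of 0.025 from limma. This was the least stable of the 4 calls. Leaving out saline replicate 1, 2 or 3 of day 14 gave differences of 1.70, 1.39 and 1.64 with adjusted p-values of 0.067, 0.090 and 0.090, and testing every probe, dim ones included, gave an adjusted p of 0.083.

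Ctsz encodes cathepsin Z, also called cathepsin X, which removes single amino acids from the carboxyl end of proteins. Its log2 signals at day 14 were 11.24, 10.60 and 10.79 in the silica rats and 9.01, 8.52 and 8.77 in the saline rats. The groups were 1.59 apart at their closest. The difference was 2.11 (SE 0.210, 95% interval 1.61 to 2.60), with an adjusted p of 0.0054 from limma.

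Ctsd encodes cathepsin D, the aspartic protease of the lysosome, which cuts within proteins and processes other lysosomal precursors. Its log2 signals at day 14 were 12.13, 12.33 and 12.18 in the silica rats and 10.23, 9.85 and 10.27 in the saline rats. The silica rats were closer together here than for any other member (SD 0.11), and the gap between the groups, 1.86, was the widest. The difference was 2.10 (SE 0.160, 95% interval 1.72 to 2.47), with an adjusted p of 0.0023 from limma.

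Every silica array above every saline array was seen for 4 of the 4 probes at day 14 and for 15.5% of all tested probes. The members come from a table selected on day 28, so other probes of that table are a closer measure. Of 643 other named probes called higher at day 28, 637 were higher at day 14 without a threshold and 304 (47.3%) were called higher. Of the 33616 probes, 185 had a larger positive difference than Ctsz, 191 than Ctsd, 400 than Ctss and 472 than Ctsb. The rats were not ranked alike by the 4 genes. Silica replicate 1 was the highest of its group for Ctsb, Ctss and Ctsz and the lowest for Ctsd, whereas saline replicate 2 was the lowest of its group for all 4. With the methods' t-test and Benjamini-Hochberg adjustment, in place of limma, only 1 probe of the whole array was called at day 14, and none of the members was.

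**Figure D1:**
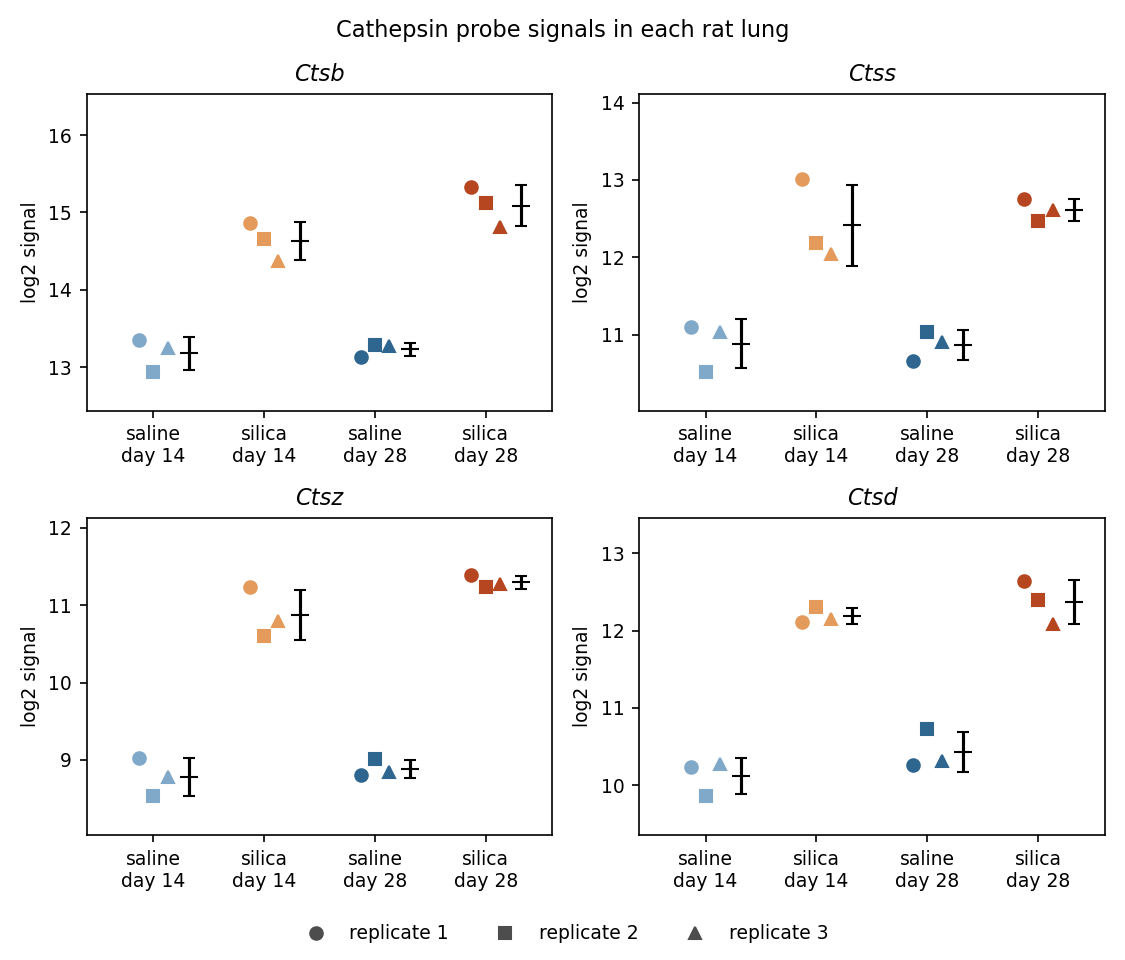
Log2 signal (vertical axis, quantile normalized over all 12 arrays) of the Ctsb, Ctss, Ctsz and Ctsd probes in each rat, by group, with the symbol giving the replicate number and the black bar the group mean ± SD of 3 rats. All panels span the same number of log2 units but start at different levels. The silica rats lie above the saline rats of the same day in every panel, and silica replicate 1 of day 14 stands high for Ctss and not for Ctsd.

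At day 28, the contrast on which the study chose the probes, the 4 transcripts were also higher in every silica rat than in any saline rat. 4.98% of the 32097 probes tested were called higher and 23.6% had groups that did not overlap in this direction, and nothing is read from the members' place among them. The signals below are log2 values after normalization over the 6 arrays of day 28. Ctsb read 15.24, 15.04 and 14.73 in the silica rats and 13.08, 13.24 and 13.23 in the saline rats, a difference of 1.82 (SE 0.152). The Ctss probe read 12.70, 12.44 and 12.56 against 10.66, 11.04 and 10.91, a difference of 1.70 (SE 0.139). Both sets of saline rats lay within 0.4 of each other on this scale.

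Ctsz had the largest day 28 difference of the 4, 2.40 (SE 0.112) or 5.29-fold. Its silica rats read 11.39, 11.23 and 11.27 and its saline rats 8.81, 9.02 and 8.85. For Ctsd the silica rats read 12.60, 12.37 and 12.05 and the saline rats 10.27, 10.73 and 10.31, a difference of 1.90 (SE 0.191). Its silica rats were spread more widely than at day 14, with an SD of 0.27.

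The silica arrays of day 28 shared a slide with saline replicate 1. Against that array alone, the mean of the 3 silica arrays was higher by 1.92 for Ctsb, 1.91 for Ctss, 2.49 for Ctsz and 2.07 for Ctsd. Against the 2 saline arrays of the other slide, the differences were 1.77, 1.59, 2.36 and 1.82 in the same order. At day 14 all arrays lay on slide 2.

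Whether the response differed between the days was asked with the interaction of silica and day over all 12 arrays, which include the day 28 arrays used for the selection. No member passed. The day 28 difference exceeded the day 14 difference by 0.41 for Ctsb (95% interval −0.12 to 0.95, adjusted p = 0.61 from limma). The corresponding values were 0.31 for Ctsz (−0.23 to 0.85, adjusted p = 0.71) and 0.22 for Ctss (−0.55 to 0.98, adjusted p = 0.87). For Ctsd the day 14 difference was nominally the larger, with an interaction of −0.12 (−0.69 to 0.45, adjusted p = 0.91), and this sign turned to 0.049 with slide as a block. These intervals allow a change in either direction for each gene. With limma, 0 of 34097 probes were called for the interaction (0%), and 3387 had a p of at most 0.05 without adjustment.

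**Figure D2:**
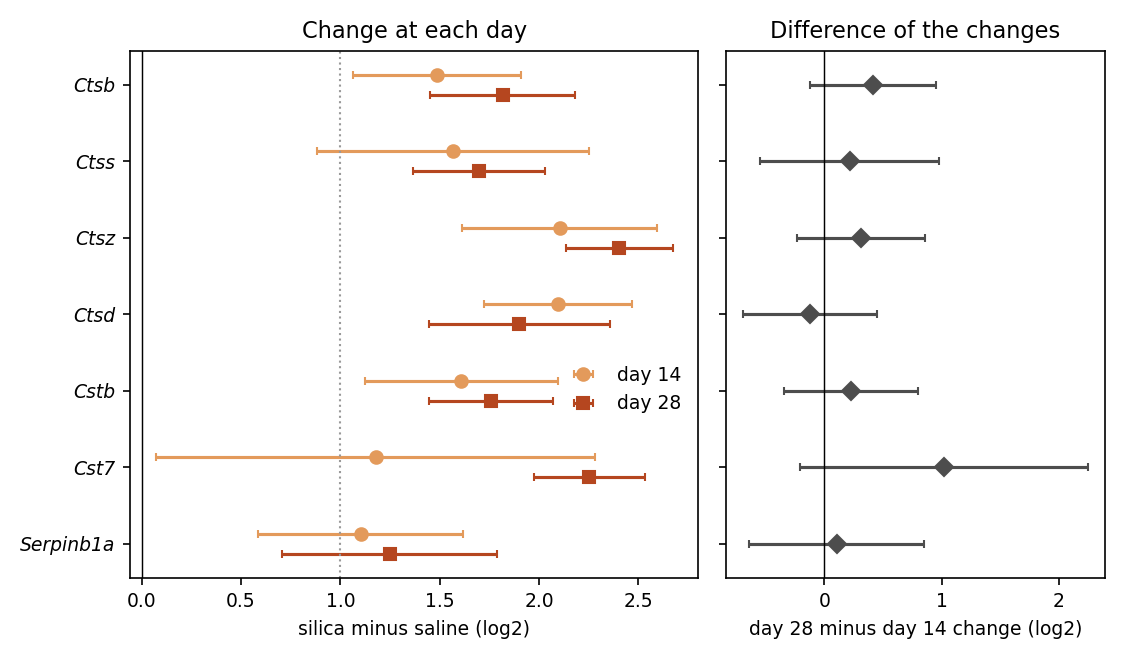
Left, the silica minus saline difference in log2 signal with its 95% interval at day 14 (circles) and day 28 (squares) for the 4 cathepsins and 3 cathepsin inhibitors, with a dotted line at a difference of 1. Right, the day 28 minus day 14 difference of these changes with its 95% interval from the 12-array fit. The day 14 intervals of the 4 cathepsins lie above 0, the day 28 intervals are a description of arrays used to select the probes, and all 7 intervals in the right panel include 0.

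Other probes of the gene table give the setting for these values. Of 643 other named probes that were called higher at day 28 and tested at day 14, 304 (47.3%) were called higher at day 14 too. Their median difference was 1.53 at day 28 and 1.06 at day 14, and 611 of the 670 with an interaction value had a positive one, with a median of 0.51. Ctsb, Ctss and Ctsz had interactions below that median, and that of Ctsd was negative. Since the named probes were picked for their day 28 values, their day 28 values are high by choice, and the comparison was not tested.

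The order of levels was the same for Ctsb, Ctsz and Ctsd on the scale of all 12 arrays, saline day 14, saline day 28, silica day 14 and silica day 28, from low to high. Mean log2 signals in that order were 13.18 ± 0.22, 13.23 ± 0.09, 14.63 ± 0.25 and 15.09 ± 0.26 (SD, n = 3 each) for Ctsb. Those of Ctsz were 8.78 ± 0.25, 8.88 ± 0.11, 10.88 ± 0.33 and 11.30 ± 0.08, and those of Ctsd 10.12 ± 0.23, 10.43 ± 0.26, 12.18 ± 0.10 and 12.37 ± 0.28. Ctss had its saline groups the other way round, at 10.88 ± 0.32 for day 14 and 10.87 ± 0.19 for day 28, below 12.41 ± 0.52 for silica day 14 and 12.61 ± 0.14 for silica day 28.

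Neighbours in this order that were given the same treatment did not separate. Silica day 28 exceeded silica day 14 by 0.46 for Ctsb (95% interval 0.08 to 0.84, adjusted p = 0.11 from limma), 0.42 for Ctsz (0.04 to 0.80, adjusted p = 0.14), 0.20 for Ctss (−0.34 to 0.74, adjusted p = 0.63) and 0.19 for Ctsd (−0.21 to 0.59, adjusted p = 0.54). The groups overlapped for all 4 genes. In this comparison 2.84% of 34097 probes were called in either direction, and day and slide cannot be told apart in it. Between the saline groups no member was called, the differences being 0.31 for Ctsd, 0.11 for Ctsz, 0.05 for Ctsb and −0.02 for Ctss, with limma calling 0 of 34097 probes and 3278 reaching an unadjusted p of at most 0.05. Within slide 2 the difference for Ctsd, 2 saline rats of day 28 against 3 of day 14, was 0.40.

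Of 11 further genes looked for, other cathepsins and legumain, only Ctsk had a named probe. Cathepsin K is a cysteine protease that degrades collagen and is best known from osteoclasts. In GRCr8 its gene lies beside Ctss on chromosome 2, with 1 gene between them. The Ctsk probe was well above background on all 6 silica arrays and on none of the 6 saline arrays, so its fold change has only a lower bound. It entered the test through the silica arrays alone, which favours a difference, and its p-value is no independent support. It was at least 2.40-fold higher with silica at day 14 (adjusted p = 0.021 from limma) and at least 2.38-fold higher at day 28. Its silica log2 signals at day 14, 5.97, 4.79 and 4.25, again had replicate 1 at the top. The call was lost at both days with normexp background correction, and at day 14 when dim probes were kept in the test.

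Cathepsins are held in check by cystatins and some serpins, and 3 of 9 listed inhibitors had a named probe. All 3 were called higher at day 28 and 2 of 3 at day 14, or 1 of 3 at day 14 with normexp or with dim probes kept. The shares over all tested probes were 4.98% at day 28 and 2.59% at day 14. Of the other named probes called higher at day 28, 47.3% were called higher at day 14. Since the inhibitors were named through the table selected on the day 28 arrays, their day 28 count is only a description. Cstb, which encodes cystatin B, the cytosolic inhibitor of cysteine cathepsins, read 13.55, 12.96 and 13.09 in the silica rats of day 14 and 11.46, 11.43 and 11.88 in the saline rats. It rose by 1.61 (SE 0.207, adjusted p = 0.010 from limma), and its day 28 difference was 1.76. The groups did not overlap at either day.

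Cst7 encodes cystatin F, an inhibitor of immune cells that is itself sent to the lysosome. Its brighter probe read 9.63, 7.78 and 7.90 in the silica rats of day 14 and 7.32, 6.95 and 7.51 in the saline rats. Replicate 1 stood far above the other 2, and the difference of 1.18 (SE 0.472) was not called (adjusted p = 0.16 from limma). At day 28 the difference was 2.25, with silica rats at 9.18, 9.03 and 8.92, and the other Cst7 probe gave 0.94 at day 14 and 1.73 at day 28. Serpinb1a, whose product inhibits neutrophil serine proteases, cathepsin G among them, rose 2.15-fold at day 14 (adjusted p = 0.029 from limma) and was 2.38-fold higher at day 28.

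Of 43 other listed genes of the lysosome, 13 had a named probe, and most of these were higher with silica. At day 14, 7 of these 13 were called higher and 1 lower, where 2.59% and 2.31% of all tested probes were called higher and lower. The median difference was 1.08, against −0.01 over all probes tested and 1.06 over the named probes called higher at day 28, of which 47.3% were called higher at day 14. That share is over probes called higher at day 28, whereas the 13 genes include 1 called lower and 1 not called there. Whether the lysosomal genes stand apart from other genes of the table was not tested. At day 28 the counts were 11 and 1, where 4.98% and 4.74% of all tested probes were called, and the median was 1.22, against −0.02. Litaf, which encodes a protein of the late endosome membrane, had the largest difference at day 28, 1.82, and rose by 1.45 at day 14 (adjusted p = 0.023 from limma). The exception was Hyal1, the gene of the lysosomal hyaluronidase, with −1.42 at day 28 and −1.08 at day 14 (adjusted p = 0.046). The day 14 count of higher genes fell to 3 when dim probes were kept in the test, and the fall of Hyal1 was then not called at either day, nor at day 14 with normexp or at day 28 with slide as a block. With normexp the day 28 count of higher genes was 6. All genes on these lists that could be named come from the table selected on the day 28 arrays, so their day 28 counts are no independent evidence of a direction.

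The vacuolar proton pump acidifies the lysosome, which the cathepsins need for their activity. Of 20 listed subunit and accessory genes, 5 had a named probe. 3 of 5 were called higher at day 14 (median difference 1.18) and 5 of 5 at day 28 (median 1.39). The shares over all tested probes were 2.59% and 4.98%. Among the other named probes called higher at day 28, 47.3% were called higher at day 14. These 5 genes were named through the table selected on the day 28 arrays, so their day 28 count is no independent evidence. Atp6v0d2, a membrane subunit known from osteoclasts and macrophages, was not well above background on any saline array, entered the test through the silica arrays alone like Ctsk, and was at least 17.1-fold higher at day 14 (adjusted p = 0.0076 from limma) and at least 17.4-fold higher at day 28. Atp6v1c1 had the smallest difference, 0.69 at day 14 (adjusted p = 0.051) and 1.11 at day 28.

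**Figure D3:**
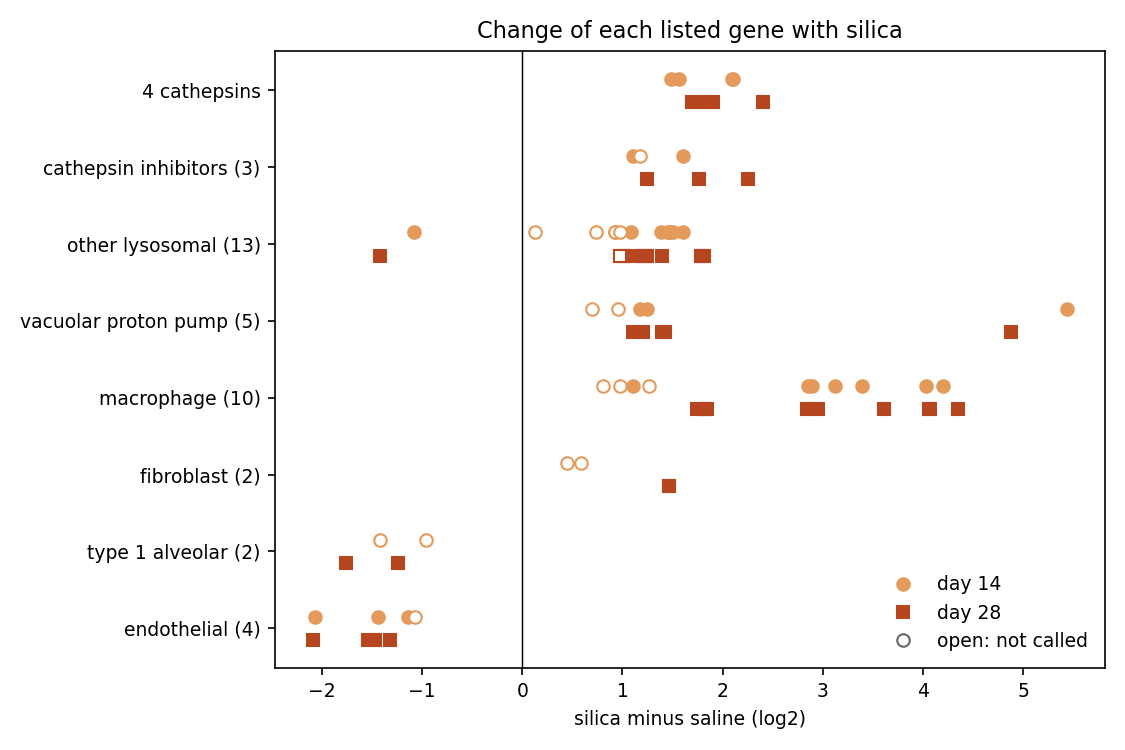
Silica minus saline difference in log2 signal for each listed gene with a named probe, at day 14 (circles) and day 28 (squares), with open symbols for probes that were not called and the number of genes in parentheses. Ctsz and Ctsd overlap at day 14, at 2.11 and 2.10. Fitted differences are plotted also for Atp6v0d2, Msr1 and Vsig4, which were not well above background in the saline rats of at least 1 day.

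Macrophage markers moved with the cathepsins. In whole lung, more cells of a type and more RNA per cell cannot be told apart. Of 18 listed macrophage genes 10 had a named probe, and 7 of 10 were called higher at day 14 and 10 of 10 at day 28, with median differences of 2.87 and 2.89. Over all tested probes 2.59% and 4.98% were called higher, and of the named probes called higher at day 28, 47.3% were called at day 14. The day 28 count is set by the selection of the table. The day 14 count was 4 with dim probes kept in the test. Vsig4 at day 14 and Msr1 at day 28 were well above background on no saline array of that day. Both entered that test through the silica arrays alone, like Ctsk, and their calls are no independent support. Itgam, which encodes the integrin CD11b, had the largest difference at day 28, 4.35, and rose by 3.39 at day 14 (adjusted p = 0.0083 from limma). Spi1, which encodes the transcription factor PU.1, had the smallest at day 28, 1.74, and rose by 1.104 at day 14 (adjusted p = 0.021 from limma). The summed signal of the 10 genes ranged from 2538 to 4071 in the saline rats of day 14 and from 19010 to 28454 in the silica rats, and from 3240 to 3393 and 28523 to 34431 at day 28. Silica replicate 1 of day 14 had the highest sum of its group and saline replicate 2 the lowest, as for Ctsb, Ctss and Ctsz. This ranking was not particular to macrophage genes. Saline replicate 2 also had the lowest saline sum of day 14 for the endothelial genes, 19568 against 24168 and 24471, and for every other list. Silica replicate 1 was also highest for the other lysosomal genes, 55089 against 40255 and 41612, and lowest for the endothelial genes. The part of macrophages in the cathepsin values was not tested.

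Markers of the lung's own cells went both ways, lower for endothelial, type 1 alveolar, and club and ciliated genes and higher for fibroblast genes. Of 7 endothelial genes 4 had a named probe, and 3 of 4 were called lower at day 14 and 4 of 4 at day 28, from −1.33 for Cdh5, the gene of VE-cadherin, to −2.09 for Plvap, a protein of endothelial diaphragms, at day 28. Over all tested probes 2.31% and 4.74% were called lower. Only genes of the table selected on the day 28 arrays had names, so unchanged markers could not appear. That selection sets the day 28 calls of all lists in this paragraph. Rtkn2 and Aqp5, the 2 named of 5 type 1 alveolar genes, had differences of −1.42 and −0.96 at day 14, neither called, and −1.76 and −1.24 at day 28. Tppp3, the 1 named of 4 club and ciliated genes, fell by 1.58 at day 14 (adjusted p = 0.037 from limma). Col1a1 and Lum, the 2 named of 6 fibroblast genes, had differences of 0.59 and 0.45 at day 14, not called, and 1.47 and 1.46 at day 28. None of the 9 neutrophil and 8 type 2 alveolar genes listed had a named probe. The part of these shifts in the cathepsin values was not tested either.

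**Figure D4:**
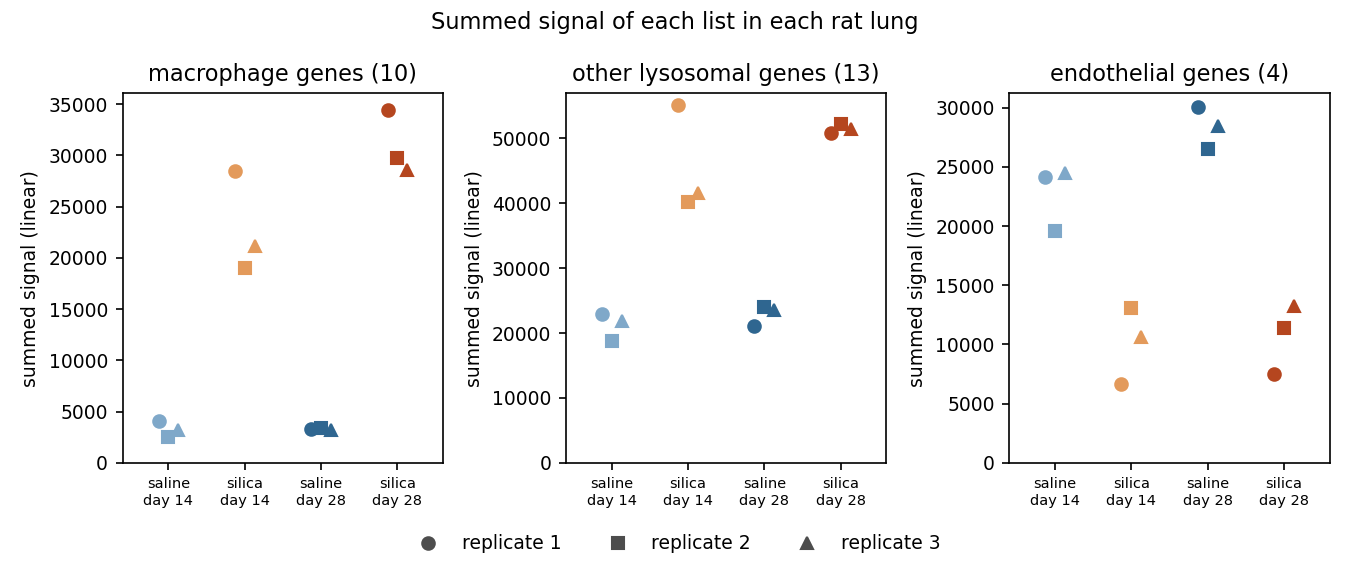
Summed linear signal (vertical axis, from 0, normalized over all 12 arrays) of the 10 macrophage, 13 other lysosomal and 4 endothelial genes in each rat, with the symbol giving the replicate number. Macrophage sums reach at most 4071 in saline rats and at least 19010 in silica rats, and endothelial sums lie the other way round.

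Among 1094 other named genes, those whose pattern over the 12 arrays was most like that of a cathepsin were found by the root mean square difference of log2 signals, each probe set to its own mean. The median over all genes compared lay between 0.96 and 1.04 for the 4 members. Closest to Ctsb were Ftl1, which encodes the light chain of the iron store ferritin (0.11), Tgfbr1, a receptor of TGF-beta (0.13), and LOC498276 (0.15). Closest to Ctss were Litaf (0.14), LOC100360087 (0.14) and Ninj1, which encodes a protein that acts in rupture of the plasma membrane (0.15).

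Closest to Ctsz were Pld3, which encodes a nuclease of the lysosome (0.12), Cd83, a surface protein of activated antigen-presenting cells (0.23), and the stress-induced transcription factor gene Atf3 (0.23). Closest to Ctsd were Ch25h, the gene of cholesterol 25-hydroxylase (0.17), LOC103694826 (0.18) and Csf2rb, the shared receptor chain for GM-CSF, IL-3 and IL-5 (0.22). The members themselves differed from each other by 0.20 for Ctsb and Ctss, the closest pair, to 0.35 for Ctss and Ctsz. Each therefore had 3 other named genes nearer to it than any fellow cathepsin was. These distances are a description over 12 arrays, and what sets them was not tested.

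**Figure D5:**
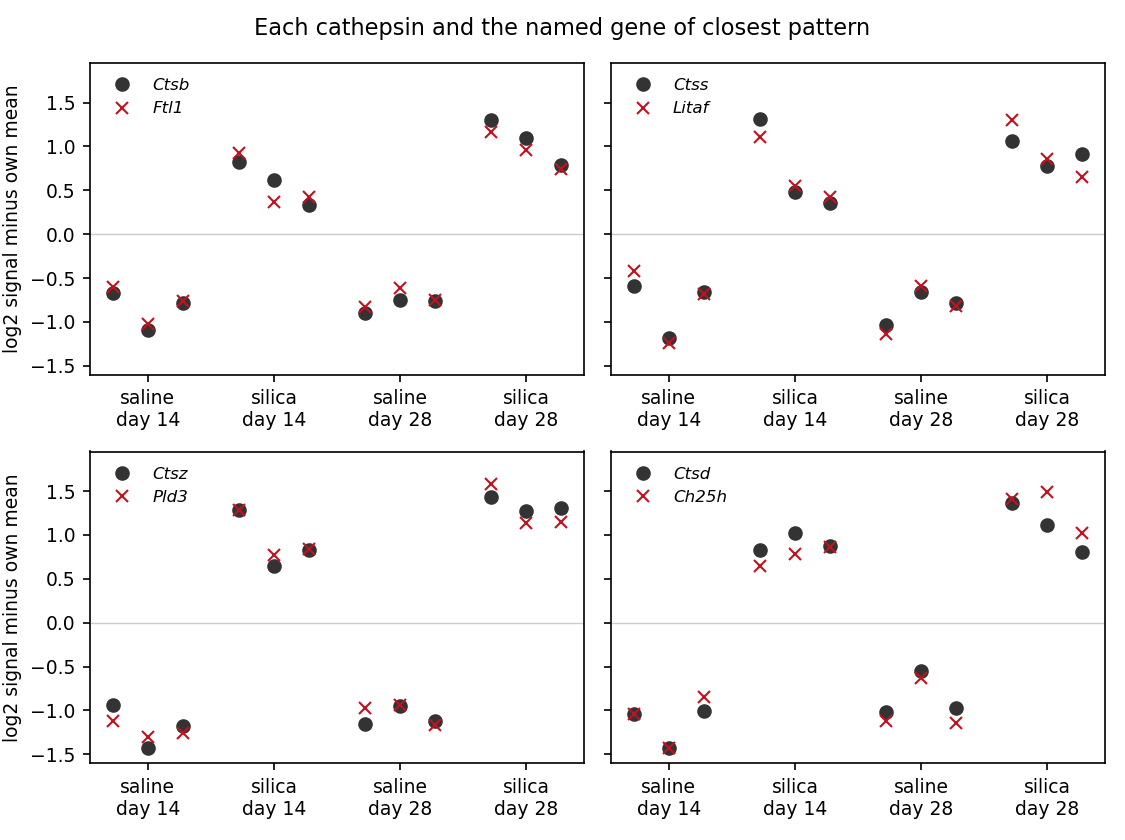
Log2 signal minus the probe's own mean over 12 arrays (vertical axis) for each cathepsin (dots) and the named gene of closest pattern (crosses), with the 3 rats of each group in order of replicate number. Ftl1 stays within a root mean square difference of 0.11 of Ctsb, Pld3 within 0.12 of Ctsz, Litaf within 0.14 of Ctss and Ch25h within 0.17 of Ctsd.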

How the data were processed

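Per the labels, RNA was labelled with Cy3 and the slides were read with Agilent Feature Extraction 10.7.1.1 (submitters' processing notes). The authors deposited spot intensity values, corrected for background and not normalized between arrays, with quality flags, and a table of log2 signals that their methods describe as quantile normalized. That table served as an alternative. Its scale matched that of the log2 intensities, its array medians were 5.425 to 5.426, and over day 28 probes it differed from the values used here by at most 0.893.

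From 62972 spots per array, 1439 control spots and outlier-flagged spots were left out (flagged spots were kept where all spots of a probe were flagged), and spots of a probe were averaged. Log2 intensities were quantile normalized within each day (6 arrays), and across all 12 arrays for the interaction and the day comparisons. Probes that every array of 1 or more groups showed well above background were tested with limma 3.58.1 in R 4.3.3, with Benjamini-Hochberg adjustment over all tested probes. Calls needed a fold change of 2 or more besides an adjusted p no larger than 0.05, except the interaction, which needed only the latter. Tests on simulated data with 200 probes changed by 2 on the log2 scale recovered 83.5% at day 28, 81% at day 14 and 77% for the interaction. False calls numbered 8, 5 and 9 in the same order. The simulated noise was drawn separately for each probe and array, without slide differences or shifts shared between probes. The recovered shares and false calls do not cover such effects. A change of 2 is larger than any member's interaction and than the day 14 differences of Ctsb and Ctss. The recovered shares do not describe changes of those sizes.

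A fold change of a probe not well above background in 1 group is a bound. It sets the bright group's mean against the dim group's mean of, on each array, the higher of the lowest well-above-background signal and the probe's own.

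Names came from the first 1279 of 2275 rows of the study's gene table, whose sequences equalled those on the arrays. Its positions name no build, so only chromosomes are printed. All 4 members matched RefSeq, which gave the promoters. Named besides the members were every other listed cathepsin and inhibitor, the genes of each other list with the largest and smallest day 28 difference, and the 3 genes of closest pattern to each member, by the brightest probe of a gene. Members and lists were chosen with earlier results of these data known. Protein values were not used here. Alternatives were normexp background correction with an offset of 50, scaling to the 75th percentile, the authors' table, no filter, slide or replicate number as a block, the methods' t-test, no minimum fold change and leaving out each rat. Python 3.11.15, pandas 2.3.3, numpy 2.4.6 and matplotlib 3.10.9 were used for tables and plots.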

Additional observations from a re-analysis of the deposited data

How the results depend on the processing

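The day 28 differences, whose size and sign the selection of the probes bears on, ranged over the alternatives from 1.69 to 1.96 for Ctsb, 1.62 to 1.91 for Ctss, 2.20 to 2.49 for Ctsz and 1.77 to 2.07 for Ctsd, and nothing is read from this. At day 14 the direction was kept throughout. The methods' t-test after Benjamini-Hochberg left Ctsb at 1.49 (adjusted p = 0.081), Ctsd at 2.10 (0.072), Ctsz at 2.11 (0.074) and Ctss at 1.57 (0.13), none called, and without the filter Ctss at 1.57 was not called (adjusted p = 0.083). Leaving out 1 rat gave 1.25 to 1.75 for Ctss, with the call lost for each saline rat of day 14. The other day 14 calls held with any rat left out, with limma. The signs that turned belong to differences that were never called. The interaction of Ctsd was 0.049 with slide as a block and −0.26 to 0.027 with a rat left out. The saline difference of Ctsb was −0.013 with normexp and −0.072 to 0.14 with a rat left out, that of Ctsz −0.017 to 0.23 with a rat left out, and that of Ctss 0.00098 with normexp, 0.024 with the 75th percentile, 0.088 with slide as a block and −0.20 to 0.095 with a rat left out. The cause was not tested.

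Counts over all probes moved more. At day 28, 3120 calls became 1303 with normexp and 9221 without a minimum fold change, and at day 14, 1646 became 709 with normexp, 395 without the filter, 1 with the adjusted t-test (1850 at the methods' own unadjusted threshold) and 3145 without a minimum fold change, with 305 to 2338 when a rat was left out (587, 325 and 305 without saline replicates 1, 2 and 3). The interaction had 1 call with normexp, 1 without the filter, 4 with slide as a block and 0 to 265 with a rat left out, 265 without saline replicate 1 of day 28. Silica day 28 against day 14 went from 969 to 287 with normexp, 4 with slide as a block, 3674 without a minimum fold change and 199 to 1206 with a rat left out, and the saline comparison from 0 to 2 with slide as a block and 0 to 4 with a rat left out. The slide term over 12 arrays rests on saline replicate 1 of day 28, and at day 14 no slide term could be fitted.

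Replicate numbers did not pair the rats. Deviations of same-numbered rats correlated at −0.158, −0.028 and −0.067 at day 28 and 0.024, −0.169 and 0.063 at day 14. With the replicate block 2897, 1533, 0, 785 and 0 probes were called in the 5 comparisons, and no member's call changed. An exact permutation test of 3 against 3 cannot go below p = 0.1.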
